A study of Homo sapiens with 24 samples.

Results

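Transcript levels measured by RNA sequencing were compared between BT549 cells that received KJ-PYR-9 together with DEX (KJ-PYR-9+DEX) and BT549 cells that received vehicle (VEH). The libraries were chosen by their treatment label, 3 KJ-PYR-9+DEX and 3 VEH libraries of the inhibitor experiment, which makes 6 of the 24 libraries in the series. BT549 is a human cell line from a triple negative breast cancer, a tumour type defined by the lack of oestrogen receptor, progesterone receptor and excess HER2, and its genotype is labelled WT in every group. KJ-PYR-9, a small molecule that disturbs the pairing of MYC with MAX, was dissolved in DMSO and given at 40 µM for 3 h. The labels do not spell out DEX, give no dose or time for it, and say neither what the vehicle contained nor whether the agents were added at the same moment. The same experiment holds 3 libraries with KJ-PYR-9 alone and 3 with DEX alone, which show where the combination differed from a single agent. They also entered the filter on low values, the shared estimate of the spread and the removal of trends. The calls against VEH therefore rest on all 12 libraries. All groups came from 1 cell line, and the replicates are labelled as biological with nothing on separate cultures, so p-values measure the spread between these libraries.

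The defining markers were checked against the label. The progesterone receptor gene PGR had 0 normalized counts in all KJ-PYR-9+DEX libraries and at most 0.382 in VEH, and the oestrogen receptor gene was not analysed here. The mesenchymal marker VIM had 10009 to 11136 normalized counts in KJ-PYR-9+DEX and 9614 to 11229 in VEH, and the epithelial cadherin CDH1 had 34.6 to 64.9 in KJ-PYR-9+DEX and 33.6 to 64.1 in VEH. Of the leukocyte markers, PTPRC had at most 9.22 normalized counts in KJ-PYR-9+DEX and 7.19 in VEH. VIM, CDH1 and PTPRC thus overlapped between the groups. Of the 3 leukocyte markers tested, CORO1A, an actin-binding protein of blood cells, rose, with 183 to 277 normalized counts in KJ-PYR-9+DEX and 92.0 to 116 in VEH, and its call ended when GC trends were removed (0.37, adjusted p = 0.17). Of 15 leukocyte markers these 3, CORO1A, CD14 and CSF1R, passed the filter on low values, and their summed level was 217 to 346 normalized counts in KJ-PYR-9+DEX and 135 to 172 in VEH, a difference whose part in other results was not tested. HER2, the product of ERBB2, is described with the epithelial genes.

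As background, MYC binds DNA with its partner MAX at E-box sequences (CACGTG) and drives genes of ribosome production, nucleotide synthesis and cell division. The glucocorticoid receptor, the product of NR3C1, is a transcription factor that is switched on by its ligand. It raises genes such as FKBP5, TSC22D3 and PER1 and holds down many inflammatory genes, partly by acting on AP-1 and NF-kB. Immediate early genes such as FOS and EGR1 need no new protein for their induction, respond to growth factors and stress through MAPK signalling, and are soon shut off again by feedback.

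Levels are the normalized read counts deposited by the submitters. Gene coordinates are those of RefSeq on GRCh38, and the GC content and length of transcripts are from GENCODE release 29. Levels are not divided by gene length, so they are compared between groups and not between genes. The recovered depth was 6885570, 12065502 and 8593074 reads in KJ-PYR-9+DEX and 30260308, 30758107 and 7845991 reads in VEH. Features without a gene symbol held 2.42% to 8.72% of the reads in KJ-PYR-9+DEX, 1.76% to 5.44% in KJ-PYR-9, 1.62% to 26.0% in DEX and 1.62% to 1.86% in VEH. KJ-PYR-9+DEX 3 stood apart, with a Spearman correlation of 0.972 to the other members of its group, against 0.990 between those members and at least 0.988 within VEH. Genes, split into 3 equal classes by the GC content of their transcript, also shifted with it. In the class of genes above 53.7% GC, the median gene lay 0.37, 0.36 and 0.76 above the VEH mean (log2) in the KJ-PYR-9+DEX libraries. In the VEH libraries, each set against the mean of the other VEH libraries, the median gene lay at -0.11, -0.05 and 0.16. In the class below 44.0% GC it lay at -0.38, -0.38 and -0.86 in KJ-PYR-9+DEX and at 0.09, 0.09 and -0.17 in VEH. KJ-PYR-9 alone had the same lean and DEX alone the opposite one. Because this lean moved with the treatment, the counts of the gene lists are also given after trends with GC content and length were taken out of each library. The same holds for the value against VEH of a called gene named here, where the removal ended its call or moved its value by more than 1.5 times. For KLF10 and KLF3 only the counts of their list are given after the removal.

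**Figure D1:**
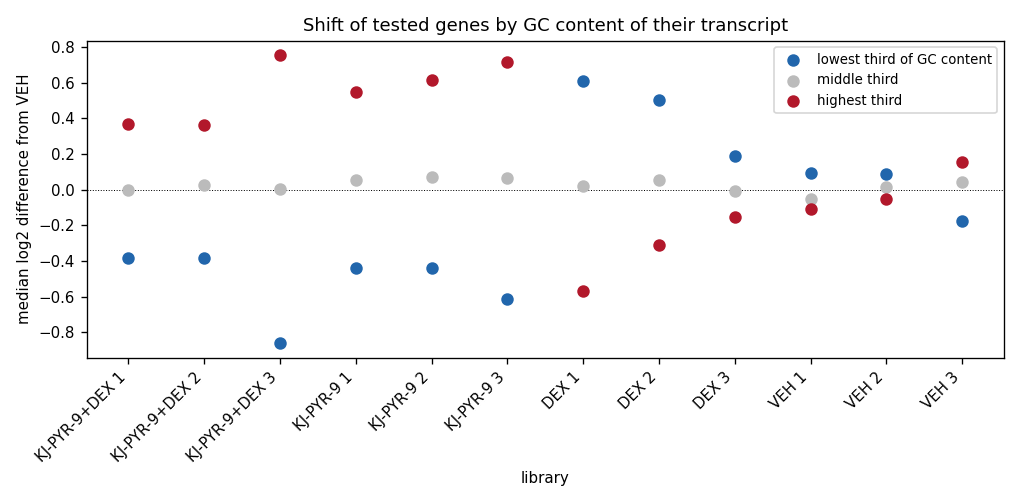
Median log2 difference from the mean of the VEH libraries for tested genes in the lowest, middle and highest of 3 equal classes of transcript GC content, 1 column of points per library, with KJ-PYR-9+DEX at the left and VEH at the right. Each VEH library is set against the mean of the other VEH libraries. In all 3 KJ-PYR-9+DEX libraries the highest class lies above 0 (0.37, 0.36 and 0.76) and the lowest class below it (-0.38, -0.38 and -0.86), and replicate 3 is the most extreme.

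Against VEH, 4979 of 13616 genes tested (36.6%) passed a limma adjusted p of 0.05, of which 2507 (18.4%) were higher and 2472 (18.2%) lower in KJ-PYR-9+DEX. A change of at least 2-fold was called for 477 genes (3.5%) that rose and 713 (5.24%) that fell. Once trends with GC content and length were taken out, 1552 of 13383 genes (11.6%) were called, 903 higher (6.75%) and 649 lower (4.85%). With only the 6 libraries compared in the fit, 1592 of 13649 genes were called, 872 higher and 720 lower. The replicate numbers were taken as pairing the libraries, and with the replicate as a block 7548 genes were called. The values and calls of this report come from the fit without the block unless it is named, so they leave that pairing out. Single libraries moved the count by more than 1.5 times, to 1376 without VEH 1, 2423 without VEH 2 and 2093 without KJ-PYR-9+DEX 3. Of 39 gene lists with at least 5 tested members, 28 had over 1.5 times fewer called members without VEH 1, 21 without VEH 2 and 30 without KJ-PYR-9+DEX 3. Where the counts of a list moved that far, its counts without VEH 1 and with the replicate block stand in parentheses, as the number that rose and the number that fell. The same counts over all genes tested were 758 and 618 of 13609 without VEH 1, and 3732 and 3816 of 13616 with the block. Under quantile scaling they were 2265 and 2461 of 13616, and without KJ-PYR-9+DEX 3 they were 1083 and 1010 of 13589. Shifts of a list are to be read beside these. A set of 315 genes (2.31%) was called higher and 216 (1.59%) lower both here and under each of 21 alternative settings. A gene that a setting did not test, such as one with a mean under 50 where that was the filter, counts as not called in it. Genes called higher had a median transcript GC content of 58.3% and genes called lower 40.0%, against 48.4% over all genes tested, and the part of GC content in these changes was not tested beyond its removal. The median log2 fold change over all genes tested was -0.0040. In bulk samples like these, a lower level from fewer cells that express a gene and one from less RNA per cell cannot be told apart.

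**Figure D2:**
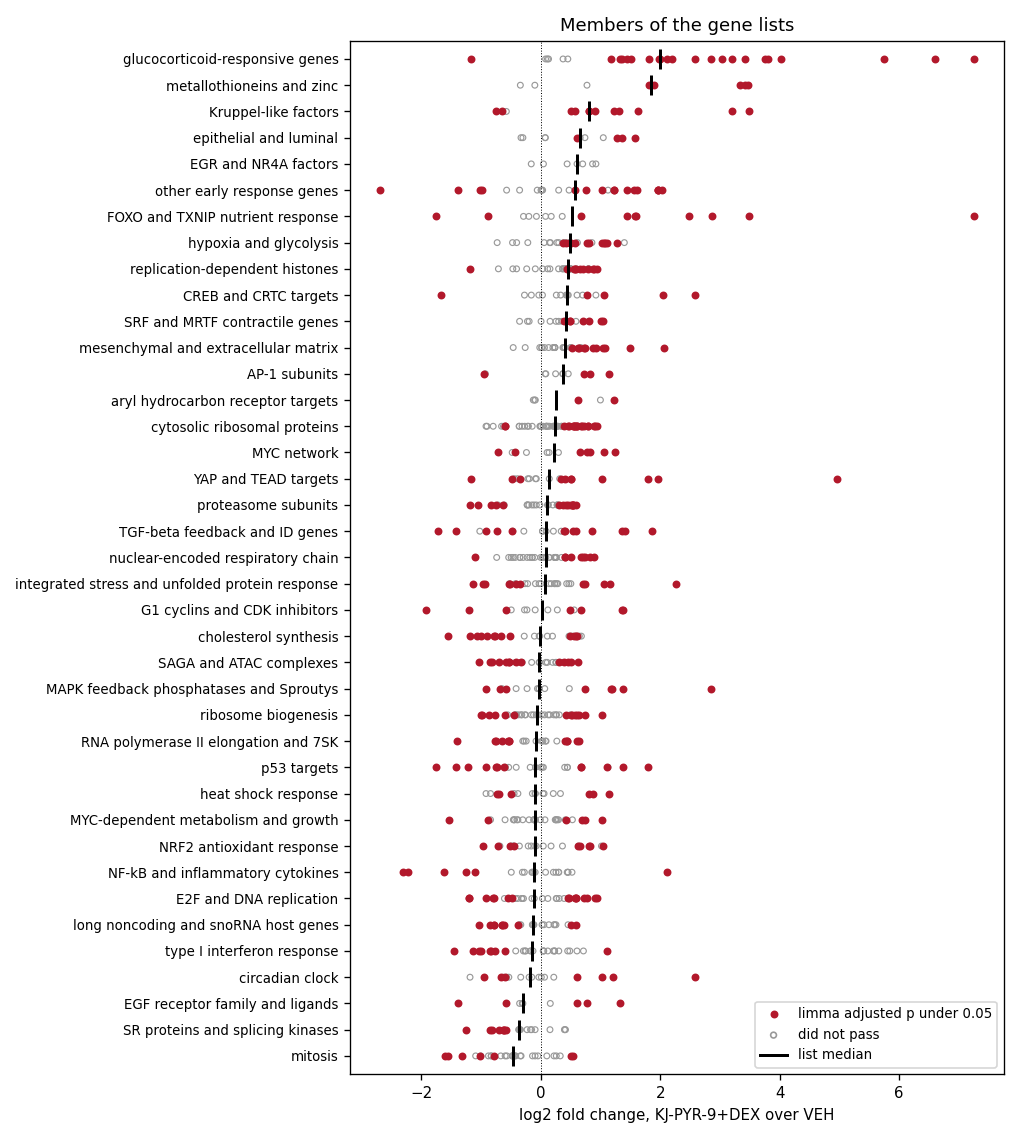
Log2 fold change of KJ-PYR-9+DEX over VEH for each tested member of the gene lists, 1 row per list with at least 5 tested members, ordered by the list median (black bar), with called members filled. The glucocorticoid-responsive list has the highest median (2.00) and the mitosis list the lowest (-0.47), and most lists have members on both sides of 0.

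Genes known to respond to glucocorticoids were among the largest rises. PDK4, the kinase that shuts off pyruvate dehydrogenase (chr7:95583499-95596516 on GRCh38), had 1349.9, 1029 and 1112 normalized counts in KJ-PYR-9+DEX, against 7.95, 3.05 and 10.9 in VEH (log2 fold change 7.26, SE 0.37, adjusted p = 1.76e-06). TSC22D3, which encodes the anti-inflammatory protein GILZ (chrX:107713221-107775988), had 1589, 1279 and 1395 in KJ-PYR-9+DEX and 32.5, 12.6 and 39.1 in VEH (log2 fold change 5.75, SE 0.40, adjusted p = 1.84e-05). FKBP5, a co-chaperone that lowers the affinity of the glucocorticoid receptor for its ligand (chr6:35573590-35728583), had 177, 164 and 136 in KJ-PYR-9+DEX and 9.46, 4.96 and 14.1 in VEH (log2 fold change 4.02, SE 0.35, adjusted p = 6.52e-05). For each of these genes all KJ-PYR-9+DEX libraries lay far above all VEH libraries, a lack of overlap that 51.5% of all genes tested shared. ZBTB16, a zinc finger repressor (chr11:114059711-114256770), had 134, 147 and 204 normalized counts in KJ-PYR-9+DEX and 0.757, 0 and 1.56 in VEH. Over the groups these were 299 reads in KJ-PYR-9+DEX and 3 in VEH, a ratio of 314 per unit of normalized depth with a 95% exact counting interval of 106 to 1530 that covers counting error only.

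Of the 27 tested members of this list, 21 rose and NR3C1 fell, and the median log2 fold change was 2.00. Once GC trends were taken out 19 rose and NR3C1 still fell, with a median of 1.82. Here 16 of the 21 that rose were called under each of the 21 alternative settings. ZBTB16, tested in 20 of the 21 settings, was called in all of these and is not among the 16. PER1, a clock gene (chr17:8140472-8152404), had 2224, 1977 and 2042 normalized counts in KJ-PYR-9+DEX and 431, 347 and 274 in VEH, with a log2 fold change of 2.59. NFKBIA, the inhibitor that holds NF-kB in the cytoplasm (chr14:35401513-35404749), had 3667, 3202 and 4170.3 in KJ-PYR-9+DEX and 989, 701 and 872 in VEH, with a log2 fold change of 2.11. In both genes every KJ-PYR-9+DEX library lay above every VEH library. Other members that rose were GLUL, the glutamine synthetase, at 1.51, ANGPTL4, an inhibitor of lipoprotein lipase, at 2.20, and the thiamine carrier SLC19A2 at 3.04. The kinase gene SGK1 rose by 1.44 and the transcription factor genes CEBPB and CEBPD by 2.00 and 1.17, and the call of CEBPD ended when the GC trend was removed (0.48, adjusted p = 0.146). BIRC3, CRISPLD2, SNAI2, ADARB1 and TNFAIP3 did not pass, with values between 0.08 and 0.45. BIRC3, an apoptosis inhibitor, passed once GC trends were removed (0.95, adjusted p = 0.022). NR3C1 itself (chr5:143277931-143435512) had 1494, 1598 and 845 normalized counts in KJ-PYR-9+DEX and 3160.2, 3004 and 2380.4 in VEH (log2 fold change -1.16, SE 0.24, adjusted p = 0.00901, or -0.61 without the GC trend). Its lowest VEH library was well above its highest KJ-PYR-9+DEX library.

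Set against the single agents, the same genes fell into different patterns, and all of these comparisons share the KJ-PYR-9+DEX libraries. Against KJ-PYR-9 alone, 14 of the 27 were higher and 3 lower in the combination, beside 3.17% higher and 4.38% lower (7.55% called) over all genes tested. Against DEX alone, 8 were higher and 8 lower, beside 33.6% and 35.1% (68.7% called). FKBP5 had 10.0, 4.16 and 5.67 normalized counts in KJ-PYR-9 and 48.8, 31.0 and 44.9 in DEX, so the combination was above both (log2 difference 4.45 from KJ-PYR-9, limma adjusted p = 1.93e-05, and 1.92 from DEX, adjusted p = 0.000742). TSC22D3 had 38.9, 22.6 and 37.3 in KJ-PYR-9 and 909, 552 and 413 in DEX, and ZBTB16 had 1.25, 1.19 and 1.62 in KJ-PYR-9 and 30.5, 18.2 and 16.7 in DEX. In KJ-PYR-9 neither was called against VEH, in DEX all libraries lay above VEH, and for ZBTB16 and TSC22D3 all libraries of the combination lay above those of DEX. PDK4 did not show that order, since it had 1797, 1195 and 992 in DEX (log2 difference -0.15 of the combination from DEX, adjusted p = 0.719). In the other direction, SGK1 averaged 1939 ± 258 in the combination, 4604 ± 299 in KJ-PYR-9, 15164 ± 2981 in DEX and 737 ± 236 in VEH (SD, n = 3 each), so the combination was above VEH but below both single agents.

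**Figure D3:**
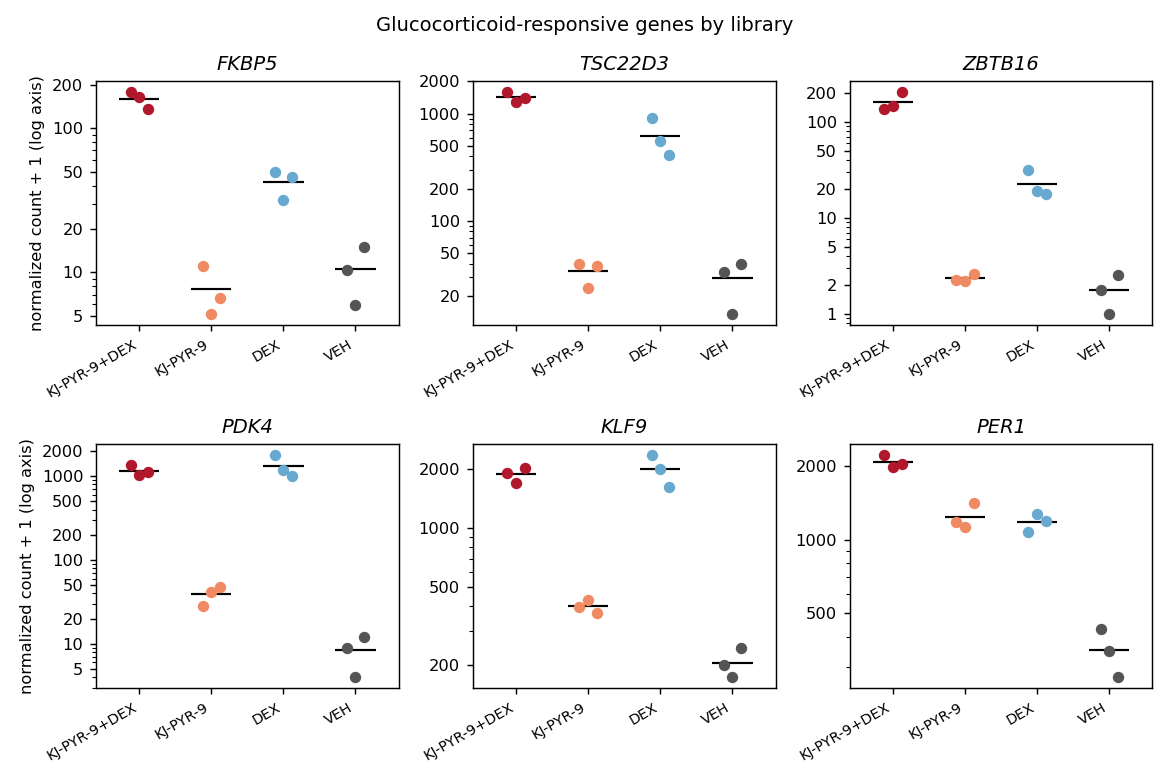
Normalized count + 1 on a log axis for 6 glucocorticoid-responsive genes, 1 point per library and a bar at the group mean, with the groups in the order KJ-PYR-9+DEX, KJ-PYR-9, DEX and VEH. FKBP5, TSC22D3 and ZBTB16 are highest in KJ-PYR-9+DEX and near the VEH level in KJ-PYR-9, while PDK4 and KLF9 are about as high in DEX as in KJ-PYR-9+DEX.

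Further transcription factor and nutrient genes rose with them. Of 13 tested Kruppel-like factors, a family of zinc finger transcription factors, 10 rose and 2 fell, with a median log2 fold change of 0.81 (7 and 1, with a median of 0.56, after GC trends were removed, and 6 and 2 without VEH 1). KLF9 (chr9:70384604-70414657) had 1914, 1709.5 and 2028 normalized counts in KJ-PYR-9+DEX and 199, 174 and 244 in VEH (log2 fold change 3.20, SE 0.17, adjusted p = 2.41e-06), and KLF15 had 28.1, 23.0 and 37.3 in KJ-PYR-9+DEX and 1.14, 1.14 and 3.13 in VEH (log2 fold change 3.49, SE 0.32, adjusted p = 8.29e-05). KLF4, KLF5 and KLF6 rose by 1.63, 1.30 and 1.22 on the log2 scale, whereas KLF10 and KLF3 fell by 0.76 and 0.65. After GC trends were removed 1 Kruppel-like factor was called lower, so at most 1 of these 2 falls kept its call. Among 16 tested FOXO and TXNIP nutrient response genes, 8 rose and 2 fell, both before and after removal of GC trends. FOXO1, a transcription factor held in check by insulin signalling (chr13:40555667-40666641), had 245, 248 and 349.8 in KJ-PYR-9+DEX and 60.9, 42.4 and 45.3 in VEH (log2 fold change 2.48, SE 0.21, adjusted p = 5.62e-05). TXNIP, an inhibitor of glucose uptake and thioredoxin, averaged 323 ± 80.6 in KJ-PYR-9+DEX and 46.7 ± 26.0 in VEH, whereas its relative ARRDC3 averaged 333 ± 82.4 in KJ-PYR-9+DEX and 1114 ± 55.1 in VEH (SD, n = 3 each), a log2 fold change of -1.76 (-1.06 without the GC trend).

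Of 8 tested metallothionein and zinc genes, which buffer metal ions, 5 rose, with a median log2 fold change of 1.85, and 4 rose after GC trends were removed. MT1X (chr16:56682470-56684196) had 1304, 1116 and 1488 normalized counts in KJ-PYR-9+DEX and 79.5, 116 and 189 in VEH (log2 fold change 3.41, SE 0.30, adjusted p = 7.33e-05), and MT1M rose by 3.48 (adjusted p = 0.000715). The zinc exporter SLC30A1, by contrast, had a value of -0.34 and did not pass (adjusted p = 0.195). Metallothionein genes are near-identical copies, so the split of reads between them is less certain than for other genes. Among 18 clock genes 4 rose and 3 fell (4 and 5 with the replicate block, 3 and 1 without VEH 1, 3 and 1 without the GC trend). Beside PER1, the nuclear receptor gene NR1D1 rose by 1.22 (0.71 without the GC trend), and BHLHE40, a repressor of the clock, had 507, 359 and 511 in KJ-PYR-9+DEX and 951, 766 and 914 in VEH (log2 fold change -0.94, SE 0.16, adjusted p = 0.00416).

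MYC itself was higher in the combination than in vehicle. It had 4304, 3666 and 4510.3 normalized counts in KJ-PYR-9+DEX and 1551, 1378 and 2489.8 in VEH (log2 fold change 1.25, SE 0.21, adjusted p = 0.00389). The groups did not overlap, although VEH 3 lay well above the other VEH libraries. Both single agents had more: MYC averaged 9853 ± 1408 in KJ-PYR-9 and 18424 ± 1364 in DEX (SD, n = 3 each), and the combination was below KJ-PYR-9 (log2 difference -1.24, limma adjusted p = 0.00395) and below DEX (-2.15, adjusted p = 5.71e-05). Of the 12 tested genes of the MYC network, which share or compete for MAX, 5 rose and 2 fell, with a median of 0.22 (3 and 1, with a median of -0.01, without the GC trend). MNT, a repressor that pairs with MAX, rose by 1.07 (0.47 without the GC trend) and MXD4, another such repressor, had 1932, 1686 and 2402 in KJ-PYR-9+DEX and 1214, 1073 and 1182 in VEH (log2 fold change 0.78, SE 0.15, adjusted p = 0.00642, or 0.32 without the GC trend). MXD1 fell by 0.71 (adjusted p = 0.0113), a call that ended when GC trends were removed (-0.40, adjusted p = 0.179). MAX had a value of 0.11 (adjusted p = 0.473).

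Genes that MYC is known to drive had calls in both directions, beside 18.4% higher and 18.2% lower over all genes tested (36.6% called). Of 28 metabolic and growth genes under MYC, 4 rose and 2 fell with a median of -0.10, and 2 of the 28 rose after removal of GC trends. With the replicate block 9 rose and 9 fell, without VEH 1 the counts were 1 and 0, and under quantile scaling 2 and 7. CAD, the enzyme that starts pyrimidine synthesis (chr2:27217369-27243943), had 2579.5, 2597 and 3480.5 in KJ-PYR-9+DEX and 1733, 1717 and 1847 in VEH (log2 fold change 0.69, SE 0.15, adjusted p = 0.01), and it did not pass without the GC trend (0.17, adjusted p = 0.225). Of 36 ribosome biogenesis genes 8 rose and 6 fell (12 and 10 with the replicate block, 1 and 2 without VEH 1, 2 and 7 under quantile scaling), and 1 rose after removal of GC trends, namely BOP1, a factor of large subunit maturation, at 0.40, adjusted p = 0.0405. Cytosolic ribosomal protein genes had 18 risen and 2 fallen among 52 tested, with a median of 0.23 that turned to -0.14 under quantile scaling, where 4 rose and 8 fell. Without VEH 1 the counts were 4 and 0, with the replicate block 26 and 11, and after removal of GC trends 15 rose. Ribosomal protein genes have many pseudogene copies that can share reads.

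Among the immediate early genes, all 7 tested EGR and NR4A genes, which encode zinc finger and orphan receptor transcription factors, were lower in KJ-PYR-9+DEX than in KJ-PYR-9, with a median log2 difference of -4.01, and lower than in DEX, with a median of -3.40. Over all genes tested, 4.38% were called lower than in KJ-PYR-9 and 35.1% lower than in DEX. With all libraries none of them was called against VEH by limma or by edgeR's quasi-likelihood test. Single libraries decided this, since limma called 4 of the 7 higher without KJ-PYR-9+DEX 2 and 2 without VEH 3, each with a median of 0.91, and 1 under quantile scaling. At an unadjusted p under 0.05 limma had 2 of the 7 higher, DESeq2 called 3 higher, and limma with the replicate block 2. Their median against VEH was 0.61, or 0.08 after removal of GC trends, when again 0 were called. EGR1 (chr5:138465479-138469303) had 955, 531 and 1073 normalized counts in KJ-PYR-9+DEX, 30810, 21391 and 26951 in KJ-PYR-9, 10857, 10815 and 11613 in DEX and 587, 369 and 1002 in VEH. KJ-PYR-9+DEX and VEH overlapped at a low level, and every single-agent library lay above them. NR4A1 (chr12:52022832-52059503) showed the same order, with 273, 119.8 and 185 in KJ-PYR-9+DEX, 10981, 8028 and 9308 in KJ-PYR-9, 3584, 3791 and 4316 in DEX and 108, 86.2 and 181 in VEH.

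AP-1 is a dimer of FOS, JUN and ATF family proteins. Among its 11 tested subunit genes, 3 rose and 1 fell against VEH (3 and 2 with the replicate block, 1 and 2 without VEH 1, 1 and 2 without the GC trend, where the median was -0.30, against 0.37 as deposited). Of the 11, 8 were lower than in KJ-PYR-9, beside 4.38% of all genes tested, and 6 lower than in DEX, beside 35.1%. FOS (chr14:75278828-75282230) had 279, 157 and 257 normalized counts in KJ-PYR-9+DEX, 21736, 13909 and 16940 in KJ-PYR-9, 6528, 5629 and 5868 in DEX and 104, 64.9 and 153 in VEH. It was thus higher in the combination than in VEH (log2 fold change 1.14, SE 0.30, adjusted p = 0.0193), a call lost without the GC trend (0.95, adjusted p = 0.0655) or without VEH 1 (adjusted p = 0.06), VEH 2 (adjusted p = 0.0641) or KJ-PYR-9+DEX 3 (adjusted p = 0.0664), and far below both single agents. ATF3, a stress-induced subunit (chr1:212565407-212620777), had 156, 167 and 191 in KJ-PYR-9+DEX, 5781, 4345 and 4287 in KJ-PYR-9, 3783, 3459 and 3550.2 in DEX and 368, 286 and 342 in VEH, so that the combination was below VEH as well (log2 fold change -0.95, SE 0.15, adjusted p = 0.00319). JUN, FOSB and JUNB did not pass against VEH, with values of 0.08, 0.46 and 0.09, and each was lower than in both single agents. FOSL2 rose, with 6026, 5292 and 7309 in KJ-PYR-9+DEX and 3638, 2851 and 4014 in VEH (log2 fold change 0.83, SE 0.16, adjusted p = 0.00741, or 0.50 without the GC trend), and its differences from KJ-PYR-9 and DEX did not pass (log2 difference -0.16, adjusted p = 0.644, and 0.14, adjusted p = 0.466).

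**Figure D4:**
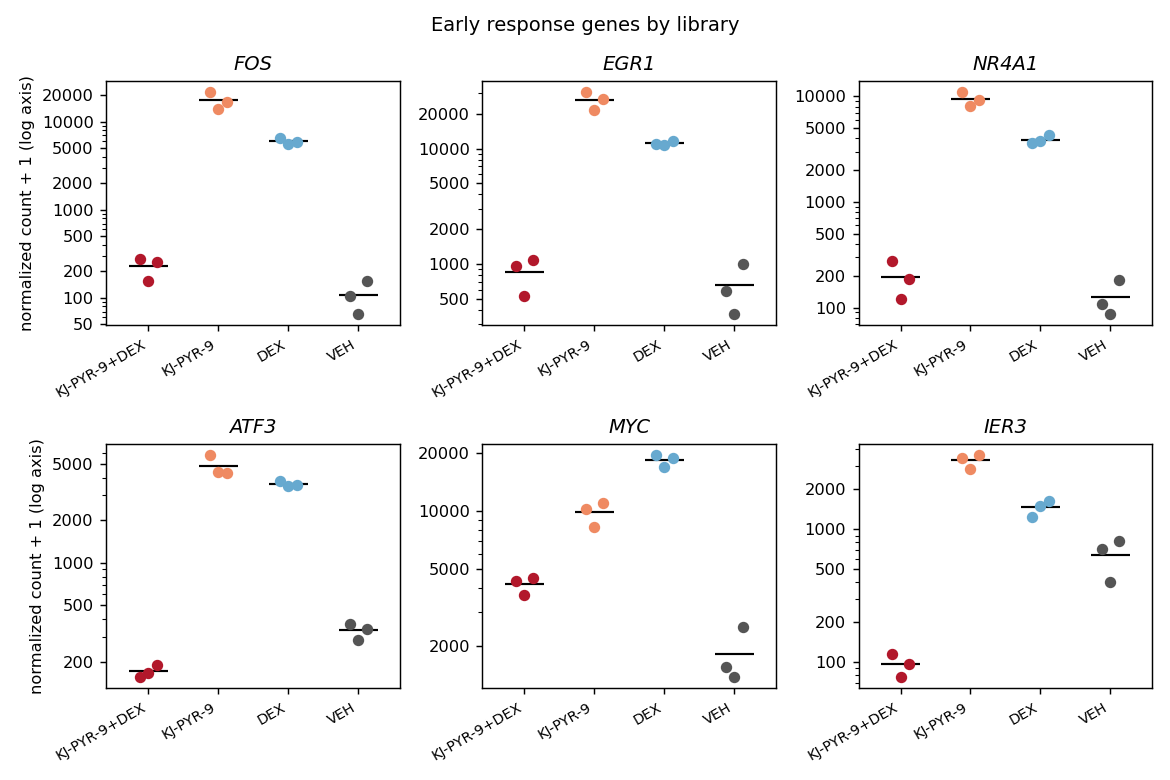
Normalized count + 1 on a log axis for 6 early response genes, 1 point per library and a bar at the group mean, with the groups in the order KJ-PYR-9+DEX, KJ-PYR-9, DEX and VEH. In all 6 genes both single agents lie above KJ-PYR-9+DEX and VEH, and ATF3 and IER3 are lower in KJ-PYR-9+DEX than in VEH.

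Of 25 other early response genes, 12 rose and 4 fell against VEH, the same counts as after removal of GC trends, and 13 were lower than in both single agents. IER3, a survival factor of the early response (chr6:30743199-30744547), had 114, 77.2 and 96.3 normalized counts in KJ-PYR-9+DEX, 3477, 2863 and 3644 in KJ-PYR-9, 1245, 1512 and 1643 in DEX and 716, 404 and 821 in VEH (log2 fold change -2.70, SE 0.25, adjusted p = 0.000101 against VEH). No KJ-PYR-9+DEX library reached the lowest VEH library. HBEGF, an EGF receptor ligand (chr5:140332843-140346603), had 80.2, 43.8 and 51.1 in KJ-PYR-9+DEX and 128, 126 and 208 in VEH (log2 fold change -1.39, SE 0.27, adjusted p = 0.00677), and IER2 fell by 0.99 (-1.57 without the GC trend). Opposite to these, the mRNA-destabilizing protein gene ZFP36 (chr19:39406847-39409407) rose, with 1284, 1124 and 1751 in KJ-PYR-9+DEX and 311, 327 and 416 in VEH (log2 fold change 1.97, SE 0.19, adjusted p = 0.000143), as did its relatives ZFP36L1 and ZFP36L2 at 1.56 and 1.23. CSRNP1 rose by 2.03 and the GTPase gene RHOB by 1.62.

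MAPK signalling is shut off by dual-specificity phosphatases and by Sprouty and SPRED proteins. Of 16 such genes 5 rose and 3 fell (3 and 2 without VEH 1, 4 and 3 without the GC trend). DUSP1, which dephosphorylates p38, JNK and ERK (chr5:172768096-172771195), had 3097, 2096 and 2879 normalized counts in KJ-PYR-9+DEX and 549.9, 245 and 370.4 in VEH (log2 fold change 2.85, SE 0.26, adjusted p = 7.95e-05). DUSP16, a JNK phosphatase (chr12:12473282-12562863), had 672, 583 and 611 in KJ-PYR-9+DEX and 1229, 1031 and 1258 in VEH (log2 fold change -0.91, SE 0.12, adjusted p = 0.000822). Neither gene had overlapping groups. DUSP6, a phosphatase of ERK, had a value of -0.65 and did not pass (adjusted p = 0.11). Here 9 of the 16, among them DUSP1, DUSP4, DUSP6 and SPRY2, were lower in the combination than in both single agents. Of 17 targets of CREB and its coactivators 4 rose and 1 fell (7 and 2 with the replicate block, 5 and 1 without the GC trend). GADD45B, a stress sensor, had 971, 1182 and 1360 in KJ-PYR-9+DEX and 274, 302 and 269 in VEH (log2 fold change 2.04, SE 0.15, adjusted p = 2.74e-05), and the cyclic AMP phosphodiesterase gene PDE4B fell by 1.66 (adjusted p = 0.000234).

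Over all genes, 408 (3%) were lower in the combination than in both KJ-PYR-9 and DEX, and 283 (2.08%) were higher than in both, with each comparison called by limma. Members of the early response lists in the first set numbered 7 of 7 for EGR and NR4A, 6 of 11 for AP-1, 13 of 25 for the other early genes and 9 of 16 for MAPK feedback. In the second set were 7 of the 27 glucocorticoid-responsive genes, ANGPTL4, FKBP5, GLUL, PER1, TFCP2L1, TSC22D3 and ZBTB16. The first set held 3 of the 27, DUSP1, SGK1 and SNAI2. Of the early response lists, the second set held ZFP36L2 of the other early genes and DUSP7 of MAPK feedback.

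Promoter sequence was read to show which sites for MYC, AP-1, CREB and SRF, the factors named here, lie next to the genes described. RefSeq sequences on GRCh38.p14, from 250 bases before to 50 after the gene start, were matched for 10636 of the 13616 genes. The motifs were searched on both strands, and capitals mark the matches. Of 12 promoters read in this way, those of FOS, NR4A1, TSC22D3, FKBP5, PDK4, KLF9, ATF3 and IL6 held no match in this window, and the 4 that did are shown. Sequence outside the window, at other starts of a gene and inexact sites were not searched, so these genes may hold such sites elsewhere. The palindromic glucocorticoid receptor element was added to the search after the data were seen, as an exact pattern only. It was held by 0 of the 10636 promoters, so this search cannot tell the gene sets apart. Inexact forms of the element were not searched, and no conclusion on receptor sites at these genes was drawn. EGR1 (chr5:138465229-138465528, plus strand) and CXCL8 (chr4:73740319-73740618, plus strand) stand for genes lower in the combination than in either agent. DUSP1 (chr5:172771146-172771445, minus strand) and PER1 (chr17:8152355-8152654, minus strand) stand for genes that rose against VEH, of which DUSP1 also lay below both agents. Capitals are CArG boxes in EGR1, TGANTCA of AP-1 in CXCL8, the cyclic AMP element TGACGTCA followed by the E-box CACGTG in DUSP1, and the E-box in PER1.
EGR1: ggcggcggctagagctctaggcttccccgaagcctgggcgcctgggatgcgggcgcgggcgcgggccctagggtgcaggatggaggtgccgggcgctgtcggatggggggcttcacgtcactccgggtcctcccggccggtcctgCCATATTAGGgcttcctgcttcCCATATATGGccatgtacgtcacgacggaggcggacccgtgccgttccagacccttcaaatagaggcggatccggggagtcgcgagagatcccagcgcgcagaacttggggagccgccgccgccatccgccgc
CXCL8: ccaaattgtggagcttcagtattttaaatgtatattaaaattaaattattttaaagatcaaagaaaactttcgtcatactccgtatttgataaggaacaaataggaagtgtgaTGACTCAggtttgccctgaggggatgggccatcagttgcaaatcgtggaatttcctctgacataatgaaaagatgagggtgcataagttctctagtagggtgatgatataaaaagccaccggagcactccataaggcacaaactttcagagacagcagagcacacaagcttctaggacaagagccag
DUSP1: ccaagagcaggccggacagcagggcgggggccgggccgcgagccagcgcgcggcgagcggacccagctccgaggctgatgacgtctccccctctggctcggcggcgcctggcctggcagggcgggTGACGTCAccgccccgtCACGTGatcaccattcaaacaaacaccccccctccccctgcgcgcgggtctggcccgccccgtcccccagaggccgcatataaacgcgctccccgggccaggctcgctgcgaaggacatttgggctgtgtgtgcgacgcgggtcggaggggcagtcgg
PER1: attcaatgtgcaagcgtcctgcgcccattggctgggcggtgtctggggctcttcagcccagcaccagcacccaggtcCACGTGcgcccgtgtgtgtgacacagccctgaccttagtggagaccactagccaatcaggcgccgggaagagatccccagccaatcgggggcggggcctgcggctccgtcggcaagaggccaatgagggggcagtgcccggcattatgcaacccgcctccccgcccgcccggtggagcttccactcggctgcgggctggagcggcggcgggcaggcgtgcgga
The CArG boxes of EGR1 start 105 and 83 bases before the gene start, the AP-1 match of CXCL8 137 bases before, the cyclic AMP element and E-box of DUSP1 125 and 108 bases before, and the E-box of PER1 173 bases before. CACGTG was held by 10.9% of the promoters of genes called higher against VEH, 9.85% of those called lower and 10.1% of all promoters. Among promoters of the genes lower than both single agents, TGANTCA was held by 8.01%, TGACGTCA by 5.77% and a CArG box by 2.24%, against 4.44%, 3.31% and 0.997% of all promoters. These shares are descriptions of the sequence and were not tested.

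NF-kB drives many cytokine genes, which recruit and activate immune cells. Of 22 tested NF-kB and inflammatory cytokine genes NFKBIA rose and 5 fell, a smaller share called than the 36.6% over all genes tested (4 and 6 with the replicate block, 2 and 4 after removal of GC trends). The median was -0.11, and it turned to 0.20 without VEH 3 and to 0.05 without KJ-PYR-9+DEX 2. Of the 22, 13 were lower than in KJ-PYR-9, beside 4.38% of all genes tested, and 13 lower than in DEX, beside 35.1%. CXCL8, the neutrophil chemokine interleukin-8 (chr4:73740569-73743716), had 26.1, 25.3 and 49.1 normalized counts in KJ-PYR-9+DEX, 559, 436 and 717 in KJ-PYR-9, 1836, 1486 and 1615 in DEX and 137, 89.3 and 288 in VEH. Its fall against VEH (log2 fold change -2.22, SE 0.38, adjusted p = 0.00435) was not called without the GC trend (-1.15, adjusted p = 0.207). IL6 (chr7:22727200-22731998) had 96.3, 55.3 and 118 in KJ-PYR-9+DEX, 2001, 1795 and 2308 in KJ-PYR-9, 5177, 4000.3 and 3625 in DEX and 96.9, 42.7 and 203 in VEH, so that the combination overlapped VEH (log2 fold change -0.14, adjusted p = 0.818). All DEX libraries thus lay above all VEH libraries in CXCL8 and IL6, as in EGR1, NR4A1 and FOS, whereas for IL6, EGR1 and NR4A1 the combination overlapped VEH. The treatment labels behind this contrast were taken as given and had no independent check. CXCL2 also overlapped VEH, at -0.28 (adjusted p = 0.545), and had a log2 difference of -3.47 from KJ-PYR-9 and -4.91 from DEX. REL, an NF-kB subunit (chr2:60881574-60931612), had 64.2, 49.5 and 47.2 in KJ-PYR-9+DEX and 143, 132 and 109 in VEH (log2 fold change -1.25, SE 0.16, adjusted p = 0.000947, or -0.71 without the GC trend), and the interferon regulator IRF1 fell by 1.10.

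Interferon-stimulated genes, which act against viruses, had 1 riser and 8 that fell among 28 tested, and 2 fell after removal of GC trends. With the replicate block 6 rose and 9 fell, and without VEH 1 the counts were 0 and 2. IFIT2 (chr10:89302046-89309271) had 566, 423 and 428 normalized counts in KJ-PYR-9+DEX and 1434, 963 and 1538 in VEH (log2 fold change -1.46, SE 0.21, adjusted p = 0.0016). IFIT5 fell by 1.04, but not without the GC trend (-0.32, adjusted p = 0.182). MX1 and OAS1 had values of 0.04 and -0.13 and did not pass.

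Stress response lists had calls in both directions, to be read beside 18.4% higher and 18.2% lower over all genes tested. Of 28 integrated stress and unfolded protein response genes, 5 rose and 7 fell, and 2 in each direction both after removal of GC trends and without VEH 1. DDIT4, an inhibitor of mTORC1 (chr10:72273924-72276036), had 20835, 21412 and 28194 normalized counts in KJ-PYR-9+DEX and 4869, 3230.5 and 7177 in VEH (log2 fold change 2.27, SE 0.25, adjusted p = 0.000332). The chaperone gene DNAJB9 fell by 0.94, but not without the GC trend (-0.41, adjusted p = 0.16). ATF4, HSPA5 and CHAC1 did not pass, at -0.03, 0.23 and -0.53. Heat shock genes had 3 risen and 3 fallen among 17 (4 and 7 with the replicate block, 2 and 0 without VEH 1, 2 and 0 without the GC trend, 2 and 6 under quantile scaling), with BAG3, a co-chaperone of selective autophagy, at 0.87 (0.47 without the GC trend) and the small chaperone gene HSPB1 at 1.14 (0.58 without the GC trend). Of 23 NRF2 targets 5 rose and 4 fell (8 and 6 with the replicate block, 0 and 1 without VEH 1, 2 and 8 under quantile scaling), and 1 fell after removal of GC trends. SLC7A11, the cystine importer, fell by 0.96, but not without the GC trend (-0.19, adjusted p = 0.56).

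Among cell cycle regulators the CDK inhibitors moved in opposite directions. CDKN1B, which encodes the CDK inhibitor p27 (chr12:12717368-12722369), had 263, 243 and 173 normalized counts in KJ-PYR-9+DEX and 1137, 843 and 622 in VEH (log2 fold change -1.91, SE 0.25, adjusted p = 0.000915). In the other direction CDKN1A, which encodes p21, averaged 905 ± 213 in KJ-PYR-9+DEX and 353 ± 119 in VEH (SD, n = 3 each, log2 fold change 1.38, SE 0.27, adjusted p = 0.0074), and CDKN1C, which encodes p57, rose by 1.35 (0.78 without the GC trend). The groups of all 3 inhibitor genes were separate. Of 25 p53 targets 5 rose and 7 fell (9 and 9 with the replicate block, 2 and 3 without VEH 1, 3 and 3 without the GC trend). GADD45A, a growth arrest gene (chr1:67685201-67688334), had 1129, 1376 and 1999 in KJ-PYR-9+DEX and 343, 423 and 509.5 in VEH (log2 fold change 1.79, SE 0.20, adjusted p = 0.000405), and the kinase gene PLK2 (chr5:58453982-58460086) had 951, 1045 and 975 in KJ-PYR-9+DEX and 2949, 3348 and 3831 in VEH (log2 fold change -1.76, SE 0.13, adjusted p = 2.15e-05). 

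Of 31 E2F and DNA replication genes 9 rose and 7 fell (11 and 12 with the replicate block, 1 and 1 without VEH 1, 5 and 7 under quantile scaling), and 3 and 1 after removal of GC trends. E2F8, a repressor of the E2F family (chr11:19224063-19241655), had 86.3, 95.6 and 90.4 normalized counts in KJ-PYR-9+DEX and 212, 259.9 and 170.4 in VEH (log2 fold change -1.21, SE 0.19, adjusted p = 0.00252). Of 30 mitosis genes 2 rose and 5 fell, with a median of -0.47, and with the replicate block 3 rose and 21 fell. Without VEH 1, and likewise without KJ-PYR-9+DEX 3, 0 were called. None was called without the GC trend by limma (PLK1 then at 0.07, adjusted p = 0.812 and CDC20 at 0.15, adjusted p = 0.639), whereas with the replicate block added to the GC removal 13 fell. Replication-dependent histone genes had 10 risen and H1-3 fallen among 38 tested, and 11 risen and 1 fallen among 36 after removal of GC trends. With the replicate block 25 rose and 4 fell, and without VEH 1 the counts were 2 and 0. H3C10 had 3895, 5183 and 6206 in KJ-PYR-9+DEX and 2165, 3136 and 2571 in VEH (log2 fold change 0.95, SE 0.19, adjusted p = 0.00857). H2BC12 rose by 0.79 but not without the GC trend (0.12, adjusted p = 0.646). Histone genes are near-identical copies, and their transcripts, which mostly lack a poly(A) tail, are kept by the ribosomal RNA depletion used here.

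Of 30 mesenchymal and matrix genes 11 rose and none fell, with a median of 0.40, and 17 rose with the replicate block, 7 without KJ-PYR-9+DEX 3 and 8 after removal of GC trends. TWIST1, a transcription factor of epithelial-mesenchymal transition (chr7:19113047-19117636), had 4069.8, 4487 and 5917 normalized counts in KJ-PYR-9+DEX and 1186, 1108 and 1128 in VEH (log2 fold change 2.06, SE 0.16, adjusted p = 3.26e-05). ZEB2, another such factor (chr2:144384081-144520119), had 1801, 1791 and 1857 in KJ-PYR-9+DEX and 699.7, 577 and 661 in VEH (log2 fold change 1.5, SE 0.15, adjusted p = 0.000135). Neither gene had overlapping groups. FN1, fibronectin, rose by 0.88 and THBS1, thrombospondin, by 0.92. Of 11 epithelial genes 4 rose (1 and 0 without VEH 1), KRT19 with 54.2, 68.0 and 104 in KJ-PYR-9+DEX and 14, 28.6 and 32.8 in VEH (log2 fold change 1.58, SE 0.32, adjusted p = 0.00797), and 1 rose after removal of GC trends, namely KRT19, whose call ended when the replicate block was added to that removal (1.08, adjusted p = 0.0522). ERBB2 rose by 0.61 but not without the GC trend (0.14, adjusted p = 0.327), and its call ended without VEH 1 (adjusted p = 0.0679), VEH 2 (adjusted p = 0.0611) or KJ-PYR-9+DEX 3 (adjusted p = 0.0561).

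TGF-beta feedback and ID genes went both ways, with 8 risen and 5 fallen of 21 (3 and 2 without VEH 1, 4 and 4 without the GC trend). The receptor gene TGFBR2 (chr3:30606356-30694142) had 2068, 1846 and 2499.8 normalized counts in KJ-PYR-9+DEX and 545, 577 and 635 in VEH (log2 fold change 1.86, SE 0.16, adjusted p = 7.22e-05). The inhibitory SMAD genes SMAD6 and SMAD7 fell by 1.43 and 0.74 (-1.24 without the GC trend), with the call of SMAD7 lost without VEH 1 (adjusted p = 0.0503). Among the ID genes, whose products block basic helix-loop-helix factors, ID1 rose, with 6679, 5471 and 8551 in KJ-PYR-9+DEX and 2986, 2054 and 2674 in VEH (log2 fold change 1.42, SE 0.18, adjusted p = 0.000758), while ID4 fell by 1.72. Of 19 YAP and TEAD targets 8 rose and 3 fell (4 and 1 without VEH 1, 4 and 3 without the GC trend), with a median of 0.14 that turned to -0.11 under quantile scaling, where 4 rose and 4 fell. F3, which encodes tissue factor (chr1:94529173-94541759), had 88.3, 71.4 and 60.9 in KJ-PYR-9+DEX and 3.03, 2.29 and 0 in VEH, a ratio of 30.8 per unit of normalized depth with a 95% exact counting interval of 17.7 to 57.8. The matricellular genes CCN1 and CCN2 rose by 1.03 and 1.97, and AJUBA, a LIM protein, fell by 1.17. Of 19 contractile genes of SRF and MRTF 7 rose (12 with the replicate block, 0 without VEH 1) and of these 2 were called without the GC trend, ACTB, the cytoplasmic actin (0.73, adjusted p = 0.0337), and VCL, vinculin (0.59, adjusted p = 0.0132). As deposited, neither was called without VEH 1 (adjusted p = 0.0575 and 0.0593), nor VCL without VEH 2 (adjusted p = 0.0568). Both calls also ended with only the 6 libraries compared in the fit and under quantile scaling (ACTB at 0.40, adjusted p = 0.116, and VCL at 0.04, adjusted p = 0.758), where the list had 1 risen and 2 fallen. In the EGF receptor list, 3 of 9 rose and 2 fell (1 and 2 without VEH 1, 1 and 2 without the GC trend), with the receptor inhibitor ERRFI1 (chr1:8011727-8026309) at 5739, 4980 and 3274 in KJ-PYR-9+DEX and 1846, 1332 and 2391 in VEH (log2 fold change 1.33, SE 0.25, adjusted p = 0.00614).

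Of 25 cholesterol synthesis genes 4 rose and 9 fell (9 and 9 with the replicate block, 1 and 4 without VEH 1), and 5 fell after removal of GC trends. STARD4, a cholesterol carrier (chr5:111496033-111512535), had 231, 192 and 161 normalized counts in KJ-PYR-9+DEX and 752, 494 and 494 in VEH (log2 fold change -1.56, SE 0.20, adjusted p = 0.000745, or -0.64 without the GC trend), and MSMO1, an enzyme of the pathway, fell by 1.18 (-0.46 without the GC trend). HMGCS1, the synthase that starts the pathway, fell by 1.01 (-0.48 without the GC trend). Of 28 hypoxia and glycolysis genes 12 rose, with a median of 0.48. VEGFA, the angiogenic growth factor, rose by 1.06 (0.63 without the GC trend), and the oxygen sensor gene EGLN1 by 0.81. With the replicate block 17 rose and 2 fell, and without VEH 1 the counts were 4 and 0. Of the 28, 5 rose and 1 fell after removal of GC trends, and GAPDH, which rose by 0.77 as deposited, then did not pass (0.35, adjusted p = 0.0814). Respiratory chain genes had 8 risen and 1 fallen among 35 (12 and 8 with the replicate block, 4 and 0 without VEH 1, 6 and 1 without the GC trend), with SDHA, a subunit of complex II, at 0.89. Proteasome subunits had 10 risen and 5 fallen among 31 (2 and 0 without VEH 1, 8 and 1 without the GC trend), with a median of 0.11 that turned to -0.08 under quantile scaling, where 3 rose and 5 fell. TIPARP, a target of the aryl hydrocarbon receptor, had 4581, 4297 and 2356 in KJ-PYR-9+DEX, 825, 739 and 578 in KJ-PYR-9, 6891, 5573 and 4056 in DEX and 1476, 2002 and 1208 in VEH (log2 fold change 1.23, SE 0.29, adjusted p = 0.0131 against VEH), and its call was lost without VEH 1 (adjusted p = 0.0515).

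Splicing genes were called lower as deposited and not once GC trends were removed. Of 20 SR protein and splicing kinase genes 8 fell (12 fell and 3 rose with the replicate block, 2 fell without VEH 1), with a median of -0.36 that turned to 0.17 after removal of the trends, when none of them fell. CLK1, a kinase of SR proteins (chr2:200853009-200864658), had 166, 162 and 136 normalized counts in KJ-PYR-9+DEX and 241, 237 and 234 in VEH (log2 fold change -0.62, SE 0.14, adjusted p = 0.0117), and its value without the trends was 0.22, adjusted p = 0.301. Of 21 RNA polymerase II elongation and 7SK genes 5 rose and 7 fell (0 and 1 without VEH 1), and 1 and 5 without the trends. LARP7, which stabilizes 7SK RNA, had 128, 91.0 and 59.0 in KJ-PYR-9+DEX and 287, 288 and 158 in VEH (log2 fold change -1.40, SE 0.32, adjusted p = 0.0121, or -0.68 without the GC trend), a call lost without VEH 1 (adjusted p = 0.0539). Of 27 SAGA and ATAC subunit genes, histone acetyltransferase complexes, 5 rose and 9 fell (8 and 10 with the replicate block, 0 and 1 without VEH 1, 2 and 2 without the GC trend), with the acetyltransferase gene KAT2B at -1.04 (adjusted p = 0.0122). Of 23 long noncoding and snoRNA host genes 2 rose and 8 fell (0 and 1 without VEH 1, 3 and 1 without the GC trend), among them MIR31HG, the host of a microRNA gene, which fell by 0.86 (adjusted p = 0.0105).

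The largest falls outside these lists included PCDH18, a protocadherin of cell adhesion (chr4:137518918-137532494), with 66.2, 58.8 and 51.1 normalized counts in KJ-PYR-9+DEX, 373, 349 and 289 in KJ-PYR-9, 415, 466 and 388 in DEX and 551, 395 and 491 in VEH (log2 fold change -3.0, SE 0.16, adjusted p = 2.74e-06 against VEH). Every library of the combination lay below every library of the single agents and VEH. LURAP1L (chr9:12775020-12823060) had 148, 135 and 149 in KJ-PYR-9+DEX and 919, 416 and 808 in VEH (log2 fold change -2.22, SE 0.26, adjusted p = 0.000483), and SOWAHD (chrX:119758588-119760202) had 36.1, 32.3 and 68.8 in KJ-PYR-9+DEX and 272, 142 and 227 in VEH (log2 fold change -2.23, SE 0.32, adjusted p = 0.00157). ACTR6, an actin-related chromatin protein, fell by 2.03 (adjusted p = 0.00436).

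Among the largest rises outside the lists were RASD1, a small GTPase induced by glucocorticoids (chr17:17494437-17496395), with 483, 420.5 and 751 normalized counts in KJ-PYR-9+DEX and 19.3, 12.2 and 32.8 in VEH (log2 fold change 4.68, SE 0.35, adjusted p = 2.51e-05), and OSR1, a zinc finger transcription factor (chr2:19344874-19358623), with 120.3, 87.6 and 142 in KJ-PYR-9+DEX and 2.65, 3.43 and 7.81 in VEH (log2 fold change 4.46, SE 0.33, adjusted p = 2.17e-05). ABLIM3, an actin-binding LIM protein (chr5:149141493-149260542), had 66.2, 81.8 and 157 in KJ-PYR-9+DEX, 6.90, 10.7 and 7.29 in KJ-PYR-9, 6.10, 17.3 and 18.8 in DEX and 4.54, 2.67 and 7.81 in VEH (log2 fold change 4.09, SE 0.45, adjusted p = 0.000327 against VEH). ITPKA, an inositol phosphate kinase, rose by 3.83. In all 4 genes KJ-PYR-9+DEX 3 was the highest library. FAM43A (chr3:194685883-194689037) had 3594, 3067 and 3911 in KJ-PYR-9+DEX, 757, 648 and 667 in KJ-PYR-9, 403, 484 and 437 in DEX and 883, 677 and 714 in VEH, so that the combination was high (log2 fold change 2.22, SE 0.15, adjusted p = 1.39e-05 against VEH) and neither single agent averaged above VEH. TRIM17, a ubiquitin ligase, averaged 153 ± 34.4 in the combination, 34.0 ± 9.82 in KJ-PYR-9 and 16.5 ± 10.0 in DEX, against 89.0 ± 4.37 in VEH (SD, n = 3 each), and the combination did not pass against VEH (adjusted p = 0.146).

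**Figure D5:**
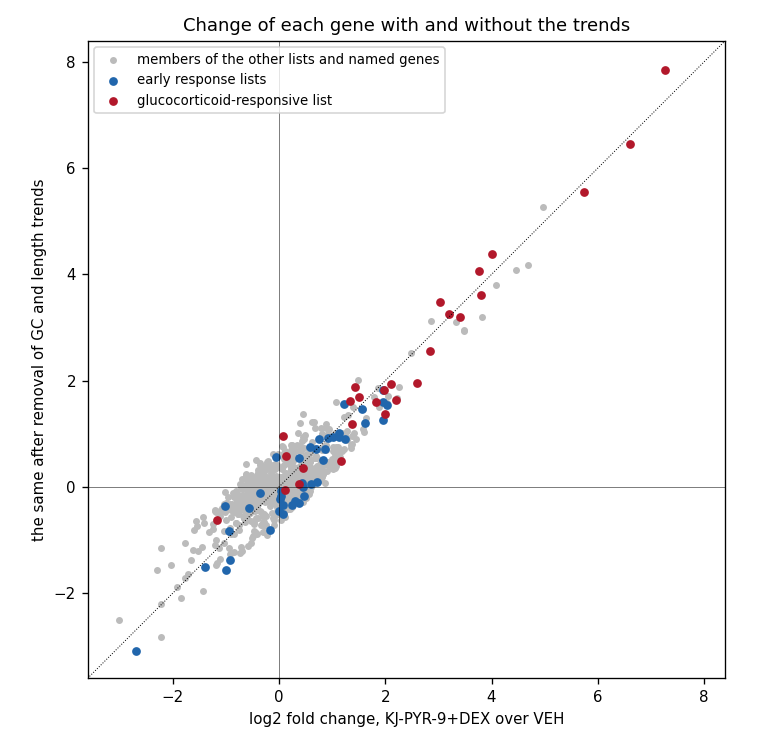
Log2 fold change of KJ-PYR-9+DEX over VEH for members of the lists and named genes, as deposited (x axis) and after trends with GC content and length were taken out of each library (y axis), with the line of equal values dotted. FKBP5 (4.02 and 4.39) and TSC22D3 (5.75 and 5.54) lie close to the line, other glucocorticoid-responsive genes such as PER1 (2.59 and 1.96), CEBPB (2.00 and 1.38) and NR3C1 (-1.16 and -0.61) lie off it towards 0, and genes with small changes spread around it on both sides of 0.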

How the data were processed

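Total RNA of BT549 cells was depleted of ribosomal RNA and sequenced as paired ends, per the labels' protocols. The values are gene-level signal that the authors deposited as normalized counts, and per the submitters' processing notes featureCounts, SAMtools, bcl2fastq and DESeq2 were used on GRCh38 (hg38). The aligner, annotation, strand setting and versions are not given in the sources used here. Low values were whole multiples of a step per library, and whole reads were recovered from 100% of values within a tolerance of 0.0001. The features without a symbol (6462 of 24290) stayed out of the tests.

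Levels were compared with limma 3.58.1 (R 4.3.3) on log2(normalized count + 1), for the 13616 genes whose mean reached 10. A single fit without a replicate term held the 12 libraries of the inhibitor experiment. Its p-values were adjusted by Benjamini-Hochberg over all genes tested, and genes with an adjusted p under 0.05 were called. Fold changes on this scale understate the change of low genes. The adjusted p in each sentence of the report comes from this fit unless another tool is named. For GC content and length, a smooth trend of each library's difference from the mean was removed. The count alternatives were edgeR 4.0.16 (quasi-likelihood) and DESeq2 1.42.0 on the recovered reads. The fit was tested on simulated data.

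The replicate numbers in the labels were taken as pairing the libraries. Deviations from the group mean correlated at 0.13 to 0.52 for all 18 pairs of libraries with the same number, against -0.47 to 0.24 for other pairs. Over all groups the ranges thus overlapped. Between KJ-PYR-9+DEX and VEH they did not, with 0.46, 0.48 and 0.52 for the same number and -0.38 to -0.04 for other numbers.

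Members and gene lists were chosen with earlier results of these data known. Beside list members, genes were named by a rule: MYC and NR3C1, the 8 largest rises and 8 largest falls among called protein-coding genes whose mean reached 50 and whose groups were separate, up to 2 called members with the smallest adjusted p in each list, and the 4 largest rises and falls against each single agent. Further members were named to show what a list holds, after their values were seen. Genes with near-identical copies and genes that overlap another gene are less certain. Promoter sequences came from RefSeq on GRCh38.p14. Some genes that the naming rule selects are not reported here.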

Additional observations from a re-analysis of the deposited data

Results flagged for a closer look

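Reads in features without a gene symbol, which entered no test, made up 4.826%, 2.424% and 8.722% of the reads in KJ-PYR-9+DEX 1, 2 and 3, against 1.618% to 1.861% in the VEH libraries. All 3 shares lie above the highest VEH library, and this is what marked them for a closer look. They were not alone in this, since the share was 26.0% in DEX 1 and 3.10% and 5.44% in KJ-PYR-9 1 and 3. What these features are was not tested.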

How the results depend on the processing

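Against VEH, 4979 genes were called. The number was 1592 (872 higher, 720 lower) with only the 6 libraries compared in the fit, 1552 (903 and 649) with GC content and length trends removed, 7548 with the replicate block (3816 lower), and 3172 (1617 and 1555) with the block and the trends removed. It was 1929 (986 and 943) without VEH 3 and KJ-PYR-9+DEX 3, a choice made after seeing the data. Leaving out 1 replicate at a time gave 1376 to 5191 (758 to 2524 higher, 618 to 2696 lower). Against KJ-PYR-9, 1028 genes were called, with 2018 under the replicate block, 1611 with the trends removed, 2583 with both, and 624 to 1224 when 1 replicate was left out. Against DEX, 9351 were called, with 4298 with the trends removed and 5765 with both block and trend removal. The cause of these moves was not tested. The other settings (pseudocounts, filters, TMM and quantile scaling, prior variance, edgeR, DESeq2 and a fit without DEX 1) stayed within 1.5 times. For the genes named by the rule, CLK1 turned to 0.22 in both settings with the trends removed, 83 gene and setting pairs lost their call and 2041 kept theirs or stayed uncalled in the same direction. Beside the counts given for the lists, the replicate block by itself ended no call of a gene named by the rule. Added to the removal of the trends, it ended that of KRT19 (1.08, adjusted p = 0.0522), which the trend removal alone had kept. Other calls, among them those of IFIT5, SLC7A11, CAD, H2BC12 and ERBB2, were lost with the trends removed, both without and with the block. Genes of few reads are limited by depth, such as ZBTB16, whose fold rests on 3 reads over the VEH libraries.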
